A study of Drosophila melanogaster with 4 samples.

Results

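The Notch pathway core examined here comprised 10 genes, N, Dl, Ser, Su(H), H, numb, mam, kuz, neur and fng. They were chosen by symbol and matched by gene identifier to a table of exon counts, in which all 10 were found among 17494 genes. All 10 also passed the filter on low counts, which kept 10360 genes for testing. They were followed in flight muscle precursors of Drosophila melanogaster with and without RNA interference (RNAi) against Antennapedia (Antp), a Hox gene.

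Notch is a transmembrane receptor that is activated by ligands on a neighbouring cell. Ligand binding exposes the receptor to cleavage, and the released intracellular part enters the nucleus and turns the DNA-binding protein Su(H) from a repressor into an activator of target genes. In the adult muscle precursors of the wing disc, Notch activity is known to sustain twist expression and to hold back differentiation, and Numb is a membrane-associated inhibitor of the receptor.

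The Antp RNAi group held 2 libraries (replicates 1 and 2) and the control group 2 libraries (replicates 2 and 3). Both groups carried the Mef2-Gal4 driver, which acts in muscle precursors and muscles, together with a UAS-GFP transgene, and were raised at 29°C to 0 hours after puparium formation (APF). The first group additionally expressed UAS-Antp RNAi and the control UAS-Y RNAi, a hairpin against the pigmentation gene yellow (y). The GFP transgene is written as UAS-GFPnls in the genotype and as UAS-GFP::Gma in the protocol, and the control is also called WT, so its exact genotype was not certain. Each sample came from 30 to 35 dissociated wing discs, from which about 50000 GFP-positive cells were sorted. The labels describe independent biological replicates whereas the study's methods describe technical replicates, so p-values measure only the spread between these libraries.

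The libraries held 42110502 and 46817694 counts in Antp RNAi and 53082579 and 53957914 in the control, with 12537 to 12800 genes detected. Levels are given in CPM, which sets each library to the same size after TMM correction for composition, and differences were tested with edgeR's quasi-likelihood test with Benjamini-Hochberg adjustment over all genes tested. Antp itself had 135 and 144 CPM in Antp RNAi and 192 and 172 CPM in the control, or 76.7% of the control mean. On the log2 scale the difference was -0.38 (adjusted p = 0.145), so the targeted RNA did not pass the test, although it passed 0.05 with edgeR's likelihood ratio test (0.0350) but not with DESeq2 (0.0656). Without Antp RNAi replicate 1 or 2 its adjusted p was 0.0473 and 0.00938, and without control replicate 2 or 3 it was 0.9996 and 0.494. The target of the control hairpin, y, had 382 and 365 counts in Antp RNAi and 0 and 0 counts in the control. The eye colour gene w, which marks many transgenes, was higher in Antp RNAi, at 2139 and 2308 CPM against 283 and 281 CPM in the control (log2 fold change 2.98, adjusted p = 7.59e-06). Knockdown of Antp, the hairpin insertion and the strain background therefore changed together between the groups and cannot be told apart.

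Of the 10 genes, numb alone passed the study's threshold, which is 0.001 for the adjusted p, and it was higher in Antp RNAi. Among all genes tested, 0.463% were called at this threshold, 21 higher and 27 lower. No further member was called at an adjusted p under 0.05, where the share over all genes was 2.58%. At an unadjusted p under 0.05, numb and neur were called, against 11.5% of all genes. In 6 of the 10 genes both Antp RNAi libraries lay on the same side of both control libraries. For 4 of them Antp RNAi was higher and for 2 it was lower, whereas 40.6% of all genes were separated in this way, 18.6% with Antp RNAi higher and 22.1% with Antp RNAi lower. The median log2 fold change of the 10 genes was 0.10, or 0.09 without numb, against -0.01 over all genes tested. With 2 libraries against 2, an exact permutation test of a single gene could not go below p = 0.333.

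**Figure D1:**
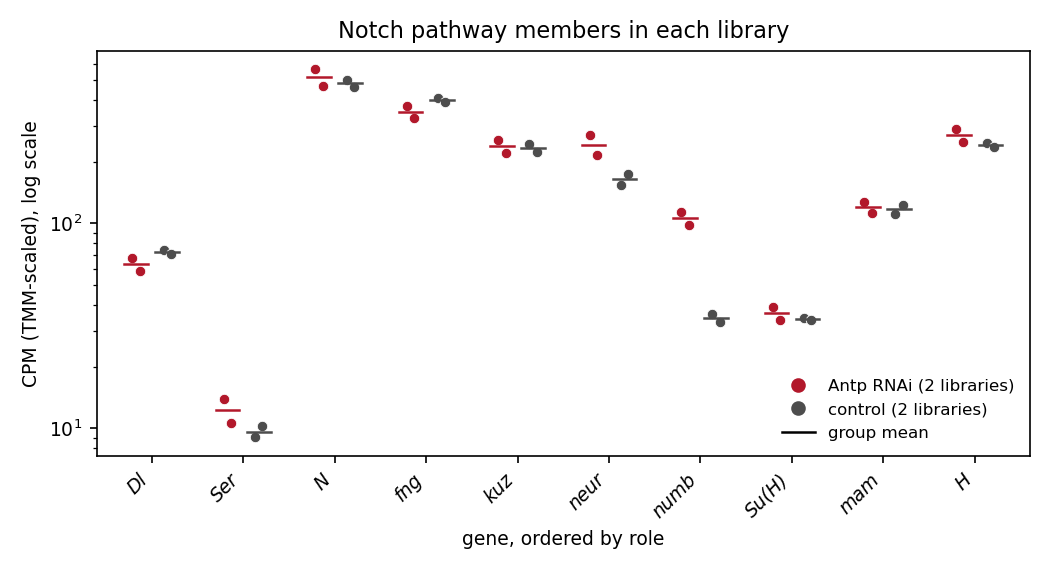
Level of the 10 Notch pathway genes in CPM (TMM-scaled, log scale) in each library, with Antp RNAi libraries left of control libraries, points for libraries and lines for group means. For numb, the Antp RNAi libraries lie at 98.6 and 113 CPM and the control libraries at 33.2 and 36.0 CPM, while the differences of the other genes are smaller.

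**Figure D2:**
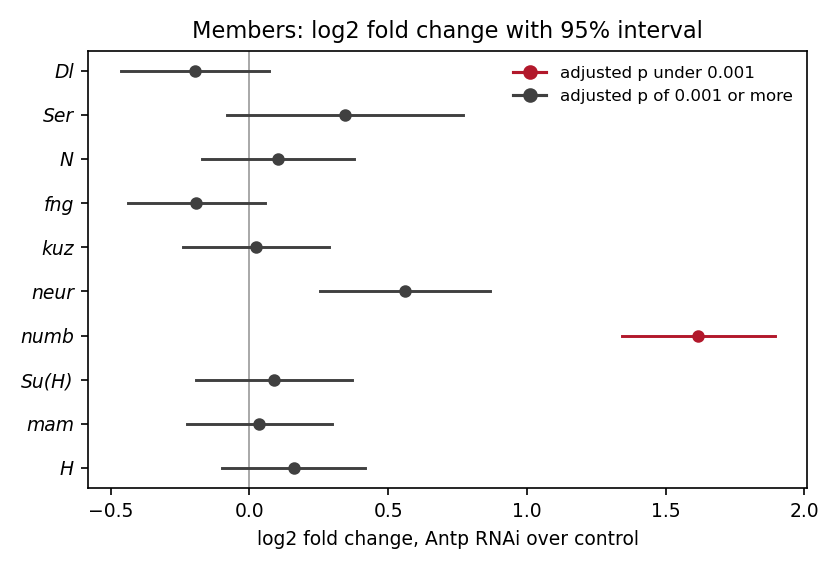
Log2 fold change (Antp RNAi over control) of the 10 genes, ordered by role, with points for the edgeR estimate and lines for its 95% interval. The intervals of numb (1.34 to 1.89) and neur (0.25 to 0.87) lie above 0, and those of the other 8 genes include 0.

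Delta (Dl) and Serrate (Ser), the Notch ligands, differed in opposite directions, and neither difference passed the test. Dl (FBgn0000463, chromosome arm 3R, 19302731 to 19326217, minus strand of the dm6 genome) had 68.0 and 58.5 CPM in Antp RNAi and 74.2 and 70.6 CPM in the control. Both Antp RNAi libraries were lower than either control library, with a log2 fold change of -0.19 (95% interval -0.46 to 0.07, adjusted p = 0.640). Ser (FBgn0004197, 3R, 27172090 to 27194267, minus strand) was the least abundant of the 10 genes, with 13.9 and 10.6 CPM in Antp RNAi and 9.03 and 10.2 CPM in the control. Its groups did not overlap either, with Antp RNAi on the higher side, but the Antp RNAi replicates differed by more (0.39 on the log2 scale) than the groups did (log2 fold change 0.35, -0.08 to 0.77, adjusted p = 0.573). Per kilobase of exon, Dl exceeded Ser 5.41- and 6.12-fold in the Antp RNAi libraries, against 9.08- and 7.65-fold in the control libraries. These 2 pairs of ratios did not overlap, and the difference between them was not tested.

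The receptor N (FBgn0004647, chromosome X, 3134870 to 3172221, plus strand) was among the most abundant members, with 567 and 470 CPM in Antp RNAi and 501 and 465 CPM in the control. The groups overlapped, and the log2 fold change was 0.10 (-0.17 to 0.38, adjusted p = 0.854). Fringe (fng, FBgn0011591, 3L, 20925891 to 20949512, minus strand), a glycosyltransferase that modifies the receptor and shifts its preference from Ser towards Dl, had 374 and 328 CPM in Antp RNAi and 409 and 394 CPM in the control. Both Antp RNAi libraries were below both control libraries, by -0.19 on the log2 scale (-0.44 to 0.05, adjusted p = 0.604). Kuzbanian (kuz, FBgn0259984, 2L, 13550139 to 13639411, plus strand), the metalloprotease that makes the first ligand-dependent cut in the receptor, had 256 and 221 CPM in Antp RNAi and 245 and 224 CPM in the control. Its groups overlapped (log2 fold change 0.03, -0.24 to 0.29, adjusted p = 0.973). Without Antp RNAi replicate 1, fng passed 0.05 with a log2 fold change of -0.28 (adjusted p = 0.0360) while N turned to -0.03 and kuz to -0.08, and without control replicate 3 kuz turned to -0.03. Without Antp RNAi replicate 2, N passed 0.05 at 0.25 (adjusted p = 0.0385).

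Neuralized (neur, FBgn0002932, 3R, 9020348 to 9039471, minus strand) encodes a ubiquitin ligase that promotes endocytosis of the ligands, a step required for signalling. It had 269 and 215 CPM in Antp RNAi and 154 and 174 CPM in the control. Both Antp RNAi libraries were above both control libraries, at 147% of the control mean, although they differed from each other by 0.32 on the log2 scale. The log2 fold change was 0.56 (0.25 to 0.87) with an unadjusted p of 0.00278 and an adjusted p of 0.0788, so neur did not pass 0.05. It did with DESeq2 (adjusted p = 0.00189), with edgeR's likelihood ratio test (0.00340) and when every gene with at least 1 count was kept (0.0257). Leaving out Antp RNAi replicate 1 gave 0.40 (adjusted p = 0.0170) and leaving out Antp RNAi replicate 2 gave 0.73 (1.40e-04), which was under 0.001. Without control replicate 2 it was 0.49 (0.442) and without control replicate 3 it was 0.66 (0.0943), and neither passed.

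The exons of neur share 1673 bases, 38.8% of its exonic length, with the antisense gene asRNA:CR31429 on the opposite strand. The library kits used do not mark strand, so reads from neur and asRNA:CR31429 cannot be told apart in that stretch. asRNA:CR31429 had 7247 and 6171 counts in Antp RNAi and 5187 and 5762 counts in the control, for which the log2 fold change was 0.59 (adjusted p = 0.0693). The 1673 shared bases are most of its exonic length of 1893 bases. Its values therefore cannot be read as those of a gene separate from neur. Because neur is also a gene of sensory organ precursors, their markers were examined. The 7 sensory organ and neuron markers summed to 31.9 and 26.3 CPM in Antp RNAi and 28.0 and 24.2 CPM in the control, nearly all from elav. None of the 5 markers that could be tested was called at 0.05 by the quasi-likelihood test. The sensory organ precursor factor sens had 9 and 10 counts in Antp RNAi and 1 and 0 in the control (adjusted p = 0.116, or 0.00195 with the likelihood ratio test), and the neural precursor factor ase had 5 and 6 counts in Antp RNAi and 0 and 0 in the control. Of the same list, ac had 10 and 6 counts in Antp RNAi and 11 and 13 in the control. For sc the counts were 28 and 9 in Antp RNAi and 18 and 26 in the control. Libraries of the groups overlapped for ac, sc, elav and nSyb, and scrt had 9 and 4 counts in Antp RNAi and 4 and 1 in the control. The part of these cells in the neur difference was not tested.

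Per kilobase, neur exceeded Dl 4.85- and 4.50-fold in the Antp RNAi libraries, against 2.55- and 3.02-fold in the control libraries. The neur value, which may include reads of asRNA:CR31429, thus exceeded that of the ligand in every library. It did so by more in both Antp RNAi libraries than in either control library. The difference between these ratios was not tested.

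The gene numb (FBgn0002973, 2L, 9437469 to 9464184, plus strand) encodes an adaptor protein that is segregated to a single daughter in asymmetric divisions and there inhibits Notch. It had 4812 and 4535 counts, or 113 and 98.6 CPM, in Antp RNAi, against 1912 and 1807 counts, or 36.0 and 33.2 CPM, in the control. Each Antp RNAi library was well above each control library, and the difference was several times the gap between replicates of a group, which was 0.20 in Antp RNAi and 0.12 in the control on the log2 scale. The means were 106 ± 10.5 CPM in Antp RNAi and 34.6 ± 1.99 CPM in the control (SD, n = 2 each), a 3.07-fold difference. The log2 fold change was 1.62 with a standard error of 0.12 (1.34 to 1.89) and an adjusted p of 3.67e-04. By p-value numb was number 19 of all genes tested, and by size of the fold change number 272.

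The ratio of numb to N per kilobase was 0.413 and 0.434 in the Antp RNAi libraries and 0.148 and 0.147 in the control libraries. Inhibitor and receptor RNA were therefore in a different proportion in the 2 groups, with little variation between replicates. The annotation lists 3 transcripts of numb from 2 start sites that lie 12361 bases apart. The deposited counts are per gene, and from which start the additional reads came was not analysed here.

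The genes around numb were then compared, in a window of 100 kb on either side that was chosen after the values of numb had been seen. It held 29 other genes, of which 9 were tested. The 3 tested genes that start within 10 kb upstream of numb were all higher in Antp RNAi without overlap of the libraries, against 18.6% of all genes tested. The 10 kb limit, and the 25 kb limit used below for genes under the filter, were not set in advance and had no downstream counterpart. The count of genes inside them is therefore a description only. Closest to numb among the tested genes, CG3769 had 59 and 42 counts in Antp RNAi and 21 and 18 in the control (log2 fold change 1.66, 0.60 to 2.72, adjusted p = 0.141). Next to it, scat, which encodes a subunit of a complex for vesicle tethering at the Golgi, had 2396 and 2254 counts in Antp RNAi and 1693 and 1637 in the control (0.77, 0.49 to 1.05, adjusted p = 0.0156). FucTB, which encodes a fucosyltransferase, had 487 and 565 counts in Antp RNAi and 400 and 416 in the control (0.65, 0.28 to 1.02, adjusted p = 0.0932). Of these, scat passed 0.05 but not 0.001, and without control replicate 3 its adjusted p was 0.0532.

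Farther from numb no tested gene stood out. The other 6 tested genes of the window had log2 fold changes of -0.12 to 0.47 with adjusted p of at least 0.790, and none was higher in Antp RNAi without overlap. Gdi was lower without overlap (log2 fold change -0.11, adjusted p = 0.790). It was also the first tested gene to start downstream of numb, at 57.4 kb, so the test could not cover genes starting nearer on that side. Among the 5 genes below the filter that start within 25 kb upstream, 4 had higher CPM in both Antp RNAi libraries, at very low counts. The share of all genes below the filter that were separated in this way was not computed. Shawl had 3 and 7 counts and Mco1 3 and 2 in Antp RNAi, against 0 and 0 for each in the control. RpS28-like, which lies between CG3769 and numb, had 8 and 8 counts in Antp RNAi and 5 and 1 in the control. Downstream of numb, lncRNA:CR43769, also below the filter, had 3 and 2 counts in Antp RNAi and 1 and 0 in the control.

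**Figure D3:**
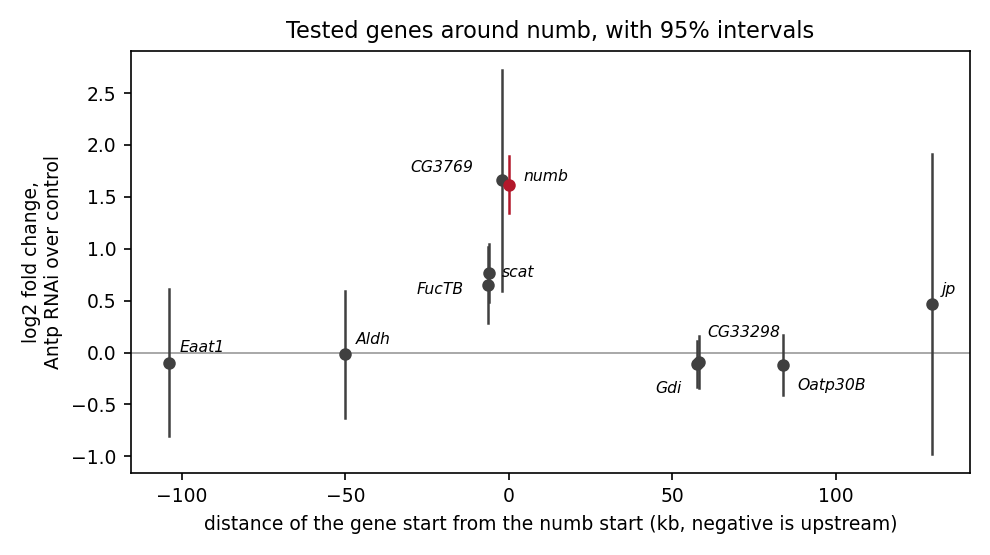
Log2 fold change (Antp RNAi over control) of numb and the 9 tested genes around it, against the distance of each gene's start from the start of numb in kb, with points for the edgeR estimate and lines for its 95% interval. FucTB, scat and CG3769, just upstream, lie at 0.65 to 1.66 and numb at 1.62, while the remaining 6 genes lie between -0.12 and 0.47 with intervals that include 0.

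According to the study's methods, the Antp hairpin line used for sequencing belongs to the KK collection of the Vienna stock centre. As background, hairpins of that collection are inserted at fixed landing sites on the left arm of chromosome 2, of which one is in the cytological region of numb and another beside the gene tio. Inserted UAS sequences can raise the RNA of a neighbouring gene where Gal4 is present. In these libraries tio, which encodes a zinc finger protein related to Teashirt, had 165 and 89 counts in Antp RNAi and 732 and 529 counts in the control (log2 fold change -2.01, adjusted p = 0.0176). Where the hairpins of the 2 groups were inserted was not analysed here. Thus for numb an effect of lower Antp, an effect of the insertion and a difference between strains cannot be told apart.

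The 5 genes whose pattern over the 4 libraries was most like that of numb, by Euclidean distance of centred log2 CPM among 10359 genes, were CG3842 (distance 0.194), CG12224 (0.246), GstD4 (0.272), CG12934 (0.278) and CG3769 (0.293). CG3769 is the nearest tested gene upstream of numb, described above. CG12224 had 1106 and 863 counts in Antp RNAi and 454 and 402 in the control, and the other 4 genes had at most 124 counts in any library. The measure rests on only 4 libraries, which fall into the same pairs for every gene.

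None of the nuclear members passed the test. Su(H) (FBgn0004837, 2L, 15039488 to 15043334, plus strand), the DNA-binding protein of the pathway, had 38.9 and 33.9 CPM in Antp RNAi and 34.6 and 33.8 CPM in the control (log2 fold change 0.09, -0.19 to 0.37, adjusted p = 0.886). Mastermind (mam, FBgn0002643, 2R, 13991203 to 14060356, plus strand), the coactivator that binds Su(H) together with the Notch intracellular domain, had 128 and 113 CPM in Antp RNAi and 111 and 124 CPM in the control (0.04, -0.22 to 0.30, adjusted p = 0.955). In both genes the libraries of the groups overlapped.

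Hairless (H, FBgn0001169, 3R, 20621938 to 20628915, plus strand), the adaptor through which Su(H) recruits corepressors, had 291 and 249 CPM in Antp RNAi and 246 and 237 CPM in the control. The Antp RNAi libraries lay above both control libraries, the lower of them narrowly (0.16, -0.10 to 0.42, adjusted p = 0.710). Per kilobase the corepressor adaptor exceeded Su(H) in every library, 3.68- and 3.60-fold in Antp RNAi and 3.49- and 3.45-fold in the control. Without Antp RNAi replicate 1 the log2 fold change of Su(H) was -0.01 and that of mam -0.05, without control replicate 2 that of mam was -0.02, and without Antp RNAi replicate 2 H passed 0.05 at 0.29 (adjusted p = 0.0236).

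Ordered by CPM per kilobase of exon, fng was the highest of the 10 genes in both groups, at 179 ± 16.6 in Antp RNAi and 205 ± 5.41 in the control (SD, n = 2 each). Then N, H, neur and kuz lay between 33.6 and 56.2 in Antp RNAi and between 33.0 and 47.6 in the control. The values of neur may include reads of asRNA:CR31429. Dl, mam and Su(H) lay between 12.0 and 13.6 in Antp RNAi and between 11.6 and 13.7 in the control, and Ser was lowest at 2.10 in Antp RNAi and 1.65 in the control. The gene numb was number 6 in Antp RNAi, at 21.6 ± 2.14, and number 9 in the control, at 7.03 ± 0.404. In Antp RNAi it stood above mam, Su(H) and Dl, all of which exceeded it in the control, and the replicates of numb and its neighbours in the order did not overlap in either group. In Antp RNAi the replicates of neur and N, of N and H, of mam and Su(H) and of Su(H) and Dl overlapped. In the control only those of H and neur and of Dl and mam did.

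All 10 genes were higher in Antp RNAi replicate 1 than in replicate 2, against 49.3% of all genes tested, and 7 were higher in control replicate 2 than in replicate 3, against 47.9%. The median gap between replicates of the 10 genes was 0.21 on the log2 scale in Antp RNAi and 0.11 in the control. Over all genes tested these gaps were similar, at 0.23 in Antp RNAi and 0.12 in the control. For 7 of the 10 members, all but numb, neur and fng, the difference between the group means was smaller than the gap between the Antp RNAi replicates.

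The wider pathway was followed through 74 further genes in 7 role groups, of which 70 passed the filter. None was called at 0.05 with edgeR's quasi-likelihood test. At an unadjusted p under 0.05, 6 were higher and 4 lower, and 32 had libraries separated by group, with 16 in each direction. Both counts were close to the shares of 11.5% and 40.6% over all genes given above, and the median log2 fold change was 0.02. At 0.05, DESeq2 called 3 of the 70 genes, edgeR's likelihood ratio test 4 and limma-voom 0. Over all genes these tools called 4.13%, 5.62% and 2.60%. At 0.001, DESeq2 called 1 of the 70 genes (nmo), against 2.12% of all genes. Without Antp RNAi replicate 1, 10 of the 70 were called, against 7.03% of all genes in that fit, and without Antp RNAi replicate 2, 15 were called, against 13%.

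**Figure D4:**
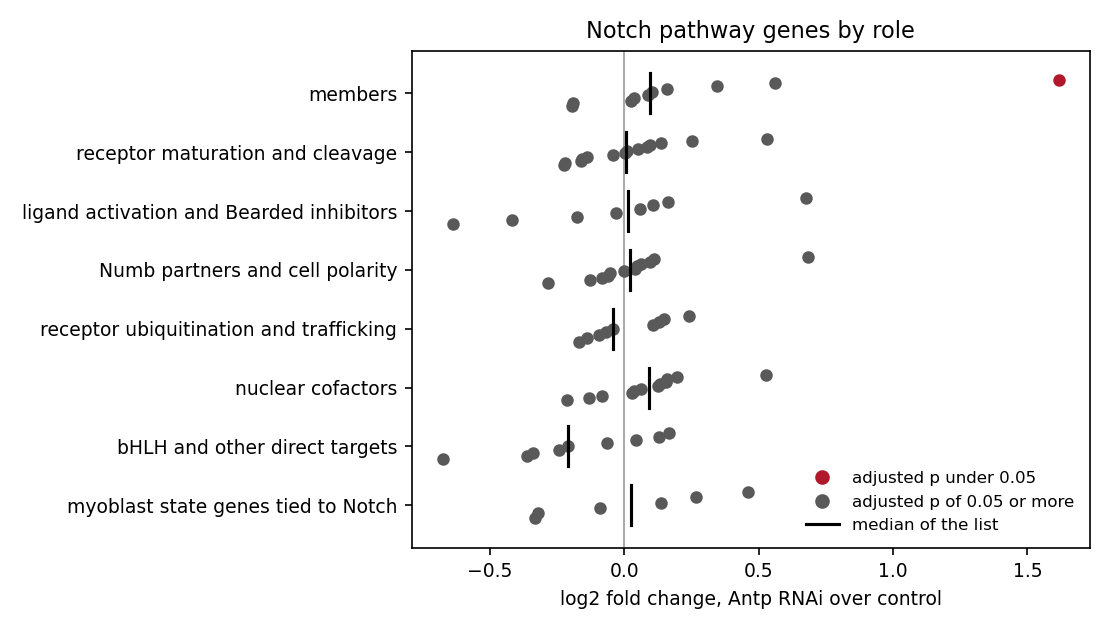
Log2 fold change (Antp RNAi over control) of the 10 Notch pathway genes (top) and the tested genes of the 7 role groups, with a point for each gene and a bar for the median of each group. The point at 1.62 is numb, and all genes of the role groups lie between -0.68 and 0.68.

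Among 14 genes for maturation and cleavage of the receptor, 8 had positive and 6 negative log2 fold changes, with a median of 0.01. The presenilin Psn, the catalytic subunit of gamma-secretase, had 216 CPM in Antp RNAi and 204 CPM in the control. Its partner Nct had 227 CPM in Antp RNAi and 226 CPM in the control, and the O-fucosyltransferase O-fut1, which prepares the receptor for fng, 88.0 CPM in Antp RNAi and 90.6 CPM in the control. The log2 fold changes of the group ran from -0.22 (Tsp86D) to 0.53 (Kul), and none passed 0.05.

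Of 12 genes for Numb partners and cell polarity, 6 were positive and 6 negative, with a median of 0.02. The tumour suppressor l(2)gl had 514 CPM in Antp RNAi and 481 CPM in the control, the clathrin adaptor subunit AP-2mu 116 CPM in Antp RNAi and 123 CPM in the control, and the spindle orientation gene pins 188 CPM in Antp RNAi and 182 CPM in the control. The gene with the smallest p in this group was spdo, named after its values were seen, which encodes a membrane protein that Numb binds and removes from the cell surface. It had 7.57 and 8.88 CPM in Antp RNAi and 4.84 and 5.42 CPM in the control, without overlap (log2 fold change 0.68, 0.23 to 1.13, adjusted p = 0.156).

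Genes for ubiquitination and trafficking of the receptor numbered 9, with 4 positive and 5 negative values and a median of -0.04. The endosomal GTPase Rab5 had 339 and 373 CPM in Antp RNAi and 294 and 309 CPM in the control (log2 fold change 0.24, adjusted p = 0.427). The recycling GTPase Rab11 averaged 494 CPM in Antp RNAi and 518 CPM in the control, and the ESCRT component shrb 80.1 CPM in Antp RNAi and 85.4 CPM in the control.

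In the group of 12 nuclear cofactors, 9 values were positive, with a median of 0.09. The ubiquitin ligase subunit Roc1a had 216 CPM in Antp RNAi and 237 CPM in the control, the corepressor CtBP 602 CPM in Antp RNAi and 552 CPM in the control, and Bx42, which binds the Notch transcription complex, 208 CPM in Antp RNAi and 204 CPM in the control. The kinase gene nmo, named after its values were seen, came closest to the threshold in the wider list. Its vertebrate counterpart phosphorylates the Notch intracellular domain. It had 264 and 229 CPM in Antp RNAi and 178 and 164 CPM in the control, or 0.53 on the log2 scale (0.27 to 0.79, adjusted p = 0.0543). It passed 0.05 with DESeq2 (adjusted p = 9.07e-04), with the likelihood ratio test (0.00124), with every gene of at least 1 count (0.0208) and without Antp RNAi replicate 1 (0.43, 0.00729) or replicate 2 (0.65, 1.94e-04). It did not pass without control replicate 2 (0.169) or replicate 3 (0.468).

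The Enhancer of split complex, E(spl), is the best known set of direct Notch targets. It holds bHLH repressor genes and genes of the Bearded family, whose small proteins bind and inhibit Neuralized. Its 12 genes lie within 43.4 kb on 3R and all were tested. None was called at 0.05, 9 had negative log2 fold changes, and 5 were lower in Antp RNAi without overlap (22.1% of all genes). The median was -0.19 for the complex, -0.06 for its 7 bHLH genes and -0.30 for its 4 Bearded family genes, all of which were negative. These genes are neighbours and share regulators, so they are not independent of each other.

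Their levels spanned several orders of magnitude. E(spl)m6-BFM was the most abundant, with 3629 and 3039 CPM in Antp RNAi and 3589 and 3229 CPM in the control (log2 fold change -0.03, adjusted p = 0.963). The bHLH genes E(spl)m7-HLH and E(spl)m3-HLH followed. E(spl)m7-HLH had 1371 and 947 CPM in Antp RNAi and 1355 and 1066 CPM in the control (-0.06, adjusted p = 0.951), and E(spl)m3-HLH had 1233 and 895 CPM in Antp RNAi and 1112 and 955 CPM in the control (0.04, adjusted p = 0.965). In these genes replicates of a group differed more than the groups did. Replicates of E(spl)mgamma-HLH lay far apart as well, with 357 and 200 CPM in Antp RNAi and 304 and 191 CPM in the control.

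The smallest p-values of the complex belonged to E(spl)m8-HLH and E(spl)malpha-BFM. E(spl)m8-HLH had 29.6 and 21.7 CPM in Antp RNAi and 45.6 and 36.3 CPM in the control (log2 fold change -0.68, -1.09 to -0.27, adjusted p = 0.116). E(spl)malpha-BFM had 210 and 178 CPM in Antp RNAi and 274 and 244 CPM in the control (-0.42, -0.70 to -0.14, adjusted p = 0.157). Both were lower in Antp RNAi without overlap, and so was E(spl)mbeta-HLH, with 304 and 301 CPM in Antp RNAi and 375 and 326 CPM in the control (-0.21, adjusted p = 0.544). DESeq2 called E(spl)m8-HLH (adjusted p = 0.0139) and the likelihood ratio test called both E(spl)m8-HLH (0.0112) and E(spl)malpha-BFM (0.0364). Leaving out libraries moved the adjusted p of E(spl)m8-HLH between 0.00227 (without Antp RNAi replicate 1) and 0.577 (without control replicate 2). For E(spl)malpha-BFM the same omissions gave 0.00295 and 0.9996.

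**Figure D5:**
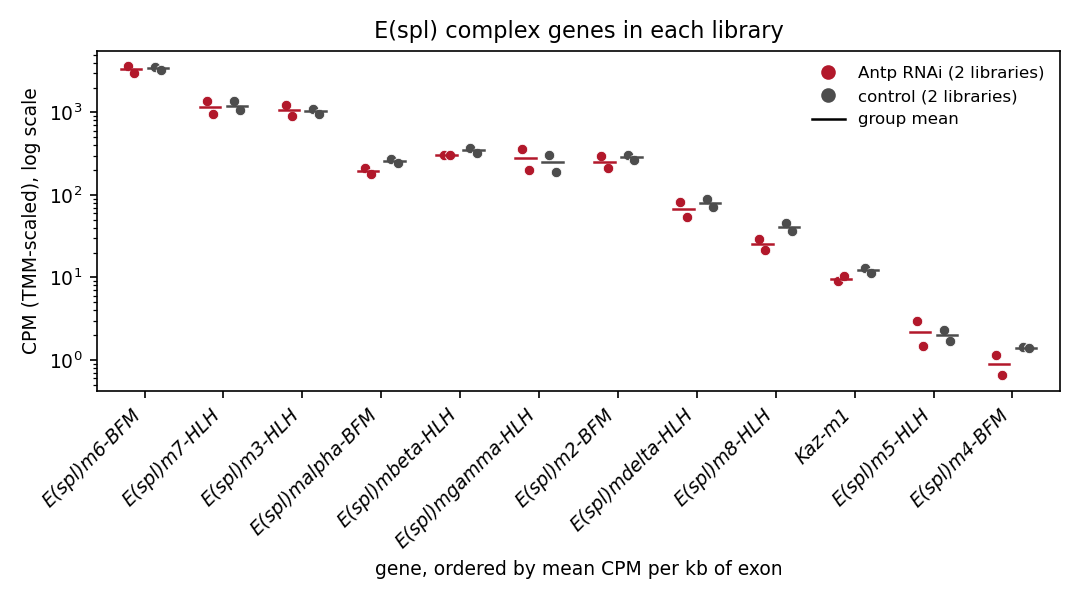
Level of the 12 genes of the E(spl) complex in CPM (TMM-scaled, log scale) in each library, with Antp RNAi libraries left of control libraries, points for libraries and lines for group means. Levels run from about 1 CPM for E(spl)m4-BFM to 3629 CPM for E(spl)m6-BFM, and the groups are separated for E(spl)m8-HLH (21.7 and 29.6 CPM in Antp RNAi, 36.3 and 45.6 CPM in the control).

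The remaining Bearded family gene of high level, E(spl)m2-BFM, had 294 and 214 CPM in Antp RNAi and 308 and 266 CPM in the control. In the group of 11 ligand activation genes and Bearded inhibitors 8 were tested, 4 positive and 4 negative. Brd and Ocho were below the filter, and BobA had 0 counts in all 4 libraries. In the group of 10 bHLH and other direct targets, Hey was below the filter, and 6 of the 9 tested genes were negative, with a median of -0.21. Counts of some genes are uncertain, since another gene holds 57.0% of the exonic bases of Kaz-m1, 59.3% of those of dpn and, in the maturation and cleavage group, all of those of frc and 47.8% of those of pen-2.

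Finally, 6 genes that describe the undifferentiated or committed state of these myoblasts and are tied to Notch were examined. The mesodermal factor twi, which Notch sustains in these cells, had 2762 and 2448 CPM in Antp RNAi and 2545 and 2191 CPM in the control (log2 fold change 0.14, adjusted p = 0.767). Him, an inhibitor of Mef2 activity, had 3529 and 3168 CPM in Antp RNAi and 4057 and 3071 CPM in the control (-0.09, adjusted p = 0.898). Libraries of the 2 groups overlapped for both genes.

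The other 4 genes did not overlap between groups, against 40.6% of all genes, and none of them passed 0.05. The repressor gene zfh1 had 2148 and 1637 CPM in Antp RNAi and 1414 and 1338 CPM in the control (0.46, adjusted p = 0.160), and the FGF receptor gene htl had 916 and 858 CPM in Antp RNAi and 720 and 753 CPM in the control (0.27, adjusted p = 0.298). The differentiation factor Mef2, whose enhancer drives the Gal4 of both groups, had 423 and 404 CPM in Antp RNAi and 502 and 540 CPM in the control (-0.33, adjusted p = 0.176). The flight muscle precursor gene vg had 196 and 184 CPM in Antp RNAi and 243 and 233 CPM in the control (-0.32, adjusted p = 0.199). Thus 2 genes were higher and 2 lower. Because the list holds genes of both states, this count of signs cannot show whether the state differed, which was not tested. DESeq2 and the likelihood ratio test called zfh1 (adjusted p = 0.0204 and 0.0436), and without Antp RNAi replicate 1 or replicate 2 zfh1, Mef2 and vg passed 0.05, as did htl without replicate 2 (0.00565). Without either control replicate none of the 4 passed, with adjusted p of at least 0.257.

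The markers of the sorted cells were at high levels in all libraries. The 8 myoblast markers summed to 11109 and 9884 CPM in Antp RNAi and 10599 and 9305 CPM in the control, and ct alone was called at 0.05, lower in Antp RNAi (log2 fold change -0.86, adjusted p = 0.00748). The 6 disc epithelium markers summed to 915 and 809 CPM in Antp RNAi and 989 and 1096 CPM in the control, nearly all from shg and ap. Of these, shg was lower in Antp RNAi without overlap, at 652 and 569 CPM against 757 and 811 CPM in the control (log2 fold change -0.36, adjusted p = 0.176). Libraries of the groups overlapped for ap. Of the other epithelial markers, nub had 5.14 and 7.18 CPM in Antp RNAi and 1.35 and 4.41 CPM in the control (log2 fold change 1.10, adjusted p = 0.424), and crb was also higher in both Antp RNAi libraries while grh and sas overlapped. The 6 hemocyte markers summed to between 41.3 and 45.8 CPM, nearly all from crq, and the 4 tracheal markers to between 22.6 and 24.9 CPM over the 4 libraries. The 5 fat body markers summed to 26.6 and 12.3 CPM in Antp RNAi and 0.452 and 0.771 CPM in the control, nearly all from apolpp. By the quasi-likelihood test apolpp was called at 0.001, higher in Antp RNAi (log2 fold change 5.02, adjusted p = 8.09e-04). Fbp2 had 4 and 2 counts in Antp RNAi and 0 and 0 in the control. Lsp1alpha had 3 and 0 counts in Antp RNAi and 2 and 0 in the control, while Fbp1 and Lsp2 had 0 counts in every library. Among hemocyte markers, NimC1 had 1 and 1 counts in Antp RNAi and 44 and 45 in the control (adjusted p = 0.00799), He had 0 and 2 counts in Antp RNAi and 7 and 6 in the control, and srp had 25 and 10 counts in Antp RNAi and 41 and 43 in the control. The part of these cells in the values of the Notch genes was not tested, and in sorted populations fewer cells of a type and less RNA per cell cannot be told apart.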

How the data were processed

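RNA-seq of sorted wing disc-associated myoblasts was analysed in 4 libraries, grouped by their titles. The table of counts deposited by the authors holds whole-number exon counts per gene, not normalized, with the exonic length of each gene, on the dm6 genome. The submitters' processing notes name bcl2fastq 2.17.1.14, Subread, featureCounts and DESeq2 1.34, and how strand and overlapping genes were handled was not given in the sources used here. All exonic bases of frc also belong to another gene, yet frc had 4555 to 5837 counts. Reads in that shared stretch were therefore not dropped from frc. cDNA was made from 2 ng of RNA with 10 PCR cycles, followed by 12 cycles of library amplification, without molecular identifiers. A second table, deposited by the authors, holds gene symbols, which were used, and the authors' own comparison (mean signal, log2 fold changes with errors, p-values), which was not.

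Genes were filtered with filterByExpr (minimum count 10), TMM-normalized and tested in edgeR 4.0.16 (R 4.3.3) with the quasi-likelihood test, two-sided, with Benjamini-Hochberg adjustment over 10360 genes and thresholds of 0.001 and 0.05. The common biological coefficient of variation was 13.2%. DESeq2 1.42.0, limma-voom (limma 3.58.1), edgeR's likelihood ratio test, 3 scalings, 2 filters and the omission of each library were alternatives. The test was checked on simulated counts. Exon overlaps came from the deposited coordinates, and transcripts from Ensembl release 115. Of 122 list symbols, 118 matched directly and 4 through RefSeq synonyms.

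Named were all 10 members, the hairpin targets, the 3 genes of highest count per kb in each role group, the myoblast state genes and the 5 genes most like numb. Others are named as chosen after their values were seen, and w, tio, the genes beside numb and single E(spl), sensory organ and marker genes were also chosen so. Members and lists were chosen with earlier results of these data known.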

Additional observations from a re-analysis of the deposited data

How the results depend on the processing

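No paired analysis was possible because a single replicate number, 2, occurs in both groups. The gene numb was called at 0.001 in all 12 alternatives, with log2 fold changes of 1.60 to 1.63 under other tests, scalings and filters and 1.52 to 1.73 when each library was left out. The count of members called at 0.001 was 1 throughout, except that leaving out a library gave 1 to 2, with neur added without Antp RNAi replicate 2. At 0.05 it was 2 with DESeq2, the likelihood ratio test and every gene of at least 1 count, where neur joined numb, and 1 to 4 when a library was left out. Those 3 alternatives called 4.13%, 5.62% and 2.88% of all genes at 0.05, and fits without a library 2.96% to 13%. Of the 70 wider pathway genes, 3 were called at 0.05 with DESeq2, 4 with the likelihood ratio test, 2 with every gene of at least 1 count and 0 to 15 with a library left out. The median of the members was -0.020 without Antp RNAi replicate 1 and 0.227 without replicate 2, its lowest and highest values. Members that turned sign did so only with a library left out. Without Antp RNAi replicate 1 kuz was at -0.078, mam at -0.049, N at -0.034 and Su(H) at -0.0064, without control replicate 3 kuz was at -0.031 and without control replicate 2 mam at -0.020. Their highest values, all without Antp RNAi replicate 2, were 0.144 for kuz, 0.140 for mam, 0.251 for N and 0.203 for Su(H).

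Fits of 3 libraries assume that the lone library varies like the other pair, and they called 153 to 228 genes at 0.001, against 48 with all 4 libraries, 236 with DESeq2, 287 with the likelihood ratio test, 120 with every gene of at least 1 count, 33 with limma-voom, 32 each with median-of-ratios size factors, upper-quartile scaling and a mean of at least 100 counts, and 63 with library totals. The cause of these differences was not tested. With 2 libraries a group, the 95% intervals of the 8 members other than numb and neur reached from -0.46 (Dl) to 0.77 (Ser) at their extremes. Differences inside a member's own interval were not excluded for that member.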
